A study of Mus musculus with 8 samples.

Results

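The SLC25 genes encode the mitochondrial carriers, and 43 of the 55401 genes in the deposited table belong to the set described here. Members were taken by symbol, as every gene named Slc25a followed by a number, 47 in all, without Slc25a3, Slc25a4, Slc25a5 and Slc25a20. The rule reads symbols alone, but it was proposed with earlier results of these data known. The RNA is that of haematopoietic stem cells (HSCs), which self-renew and give rise to every blood lineage. About 3000 were sorted per sample from the marrow of 8 week old C57BL/6 mice. The 4 control libraries came from Nynrinfl/fl mice, whose floxed alleles stay intact for lack of Cre and which the labels call wild type. The 4 Nynrin CKO libraries came from Nynrinfl/flTie2-Cre mice, in which Cre is driven by the Tie2 promoter, active in endothelium as well as blood cells. The series title names HSC function and the mitochondrial permeability transition pore. The comparison asked here is how the transcripts of the SLC25 members in the set differ when Nynrin is deleted. Only the Nynrin CKO mice carried Cre, so effects of Cre and of Nynrin loss cannot be told apart.

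Mitochondrial carriers are small membrane proteins built from repeated pairs of transmembrane helices, most of them in the inner mitochondrial membrane. Each moves a particular metabolite, such as citrate, aspartate, a nucleotide, a cofactor or iron, usually in exchange for another, and so joins the matrix pathways to those of the cytosol. HSCs are known for relying on glycolysis more than their progeny do, while carriers of iron, glycine and glutathione serve haem and iron-sulphur cluster synthesis in blood precursors.

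Total counts ran from 36942835 to 56437299 per library. Nynrin itself was at 30.1 to 47.5 CPM (counts scaled to a common library total with TMM factors, which correct for composition) in controls and at 8.22 to 12.7 CPM in Nynrin CKO. Whether the 8 libraries are 8 mice is not labelled, and p-values therefore reflect only how these libraries vary, perhaps for technical reasons. Control 4 and Nynrin CKO 3 and 4 formed a library set of their own, with counts on 28914 to 31344 genes against 40240 to 44562 in the other 5, and with 166 to 205 against 836 to 1389 CPM on 1766 olfactory and vomeronasal receptor genes. Xist was high in controls 3 and 4 alone, and low in every Nynrin CKO library. Xist class was thus uneven between the groups and partly confounded with genotype. Nynrin CKO 1 and 2 were much alike, as were 3 and 4. All 10 HSC markers (among them Kit, Slamf1, Procr and Mecom) had counts in every library, and their summed level was 3150 to 3960 CPM among controls and 3550 to 4050 CPM in Nynrin CKO. Summed markers of other cells were higher in Nynrin CKO in part: 13 erythroid genes lay at 1180 to 1490 CPM among controls and 2170 to 2550 CPM in Nynrin CKO, and 10 neutrophil precursor genes at 204 to 332 CPM among controls, 448 and 495 CPM in Nynrin CKO 1 and 2, and 4020 and 4060 CPM in 3 and 4. Most of the latter sums was Mpo, at 60.7 to 101 CPM among controls, 164 and 159 CPM in Nynrin CKO 1 and 2, and 2830 and 2820 CPM in 3 and 4, whereas Ly6g was highest in Nynrin CKO 1 at 1.62 CPM. Most of the erythroid sums was Car2, at 965 to 1280 CPM among controls and 1910 to 2180 CPM in Nynrin CKO. Of the 13 erythroid genes 11 had a positive log2 fold change. Slc4a1 and Hbb-bt were highest in controls 2 and 3, at 11.5 and 32.2 CPM. The 8 B cell genes summed to 76.3 to 129 CPM among controls, 106 and 114 CPM in Nynrin CKO 1 and 2, and 1100 and 1110 CPM in 3 and 4, of which Ighm made up 1010 and 1030 CPM. Pax5 was highest in control 3 at 3.85 CPM and Ms4a1 in Nynrin CKO 2 at 1.11 CPM. The sums of monocytes and macrophages, of T and NK cells and of mast cells and basophils were also highest in Nynrin CKO 3 and 4. They reached 737, 282 and 106 CPM. Most of them was Lyz2 (534 and 547 CPM), Nkg7 (267 and 259 CPM) and Cpa3 (68.3 and 64.6 CPM), in that order. In Nynrin CKO 1 and 2 these sums were 442 and 432, 153 and 139, and 30.7 and 27.0 CPM. The highest controls had 377, 82.5 and 28.1 CPM. Log2 fold changes in these lists were positive for 8 of 8, 7 of 8 and 5 of 6 genes. Cd3e and Fcer1a were highest in controls 3 and 1, at 1.69 and 5.72 CPM. Among these lists Cd79a, Klrd1, Ms4a2 and Prss34 had no counts in at least 1 library. The sum of 6 megakaryocyte genes overlapped between groups, at 137 to 403 CPM among controls and 154 to 372 CPM in Nynrin CKO. The 6 endothelial genes summed to 109 to 138 CPM among controls, 122 and 122 CPM in Nynrin CKO 1 and 2, and 244 and 240 CPM in 3 and 4. Stab2 differed most within this list. Its controls spanned 2.97 to 19.6 CPM, while the latter libraries reached 83.8 and 80.2 CPM. Plvap reached 21.5 and 23.7 CPM there, above a control maximum of 5.99 CPM. Emcn (50.8 and 45.3 CPM) and Pecam1 (82.8 and 84.6 CPM) exceeded their control maxima of 38.1 and 79.1 CPM by less. Kdr and Cdh5 instead peaked in controls 1 and 2, with 5.72 and 1.57 CPM. In sorted bulk RNA, fewer cells of a type and less RNA per cell cannot be told apart, and the part of these other cells in the results was not tested.

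HSCs held transcripts of most carriers, at widely spread levels. Of the 43 members, 29 averaged at least 10 CPM over the 8 libraries, 7 lay between 1 and 10 CPM, and 7 lay under 1 CPM. Levels are compared between genes as CPM per kilobase of the longest annotated transcript. The highest in controls was Slc25a39, which imports glutathione into the matrix, at 130 ± 20.6 CPM per kb (SD, n = 4), followed by the citrate carrier Slc25a1 at 122 ± 8.68. These first ranks did not differ beyond their spread. Next came the oxoglutarate carrier Slc25a11 of the malate-aspartate shuttle at 78.4 ± 6.14, then Slc25a17, a peroxisomal carrier of coenzyme A and adenine nucleotides, at 44.8 ± 7.64, and Slc25a12, the calcium-regulated aspartate/glutamate carrier also called aralar, at 44.7 ± 4.84, again within the spread of each other. In CPM without regard to length, Slc25a12 was the highest and held 16.7% of the counts of all members in controls. The next in order were Slc25a45 at 20.1 ± 2.23 and Slc25a46, an outer-membrane member tied to mitochondrial shape, at 19.6 ± 1.67.

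**Figure D1:**
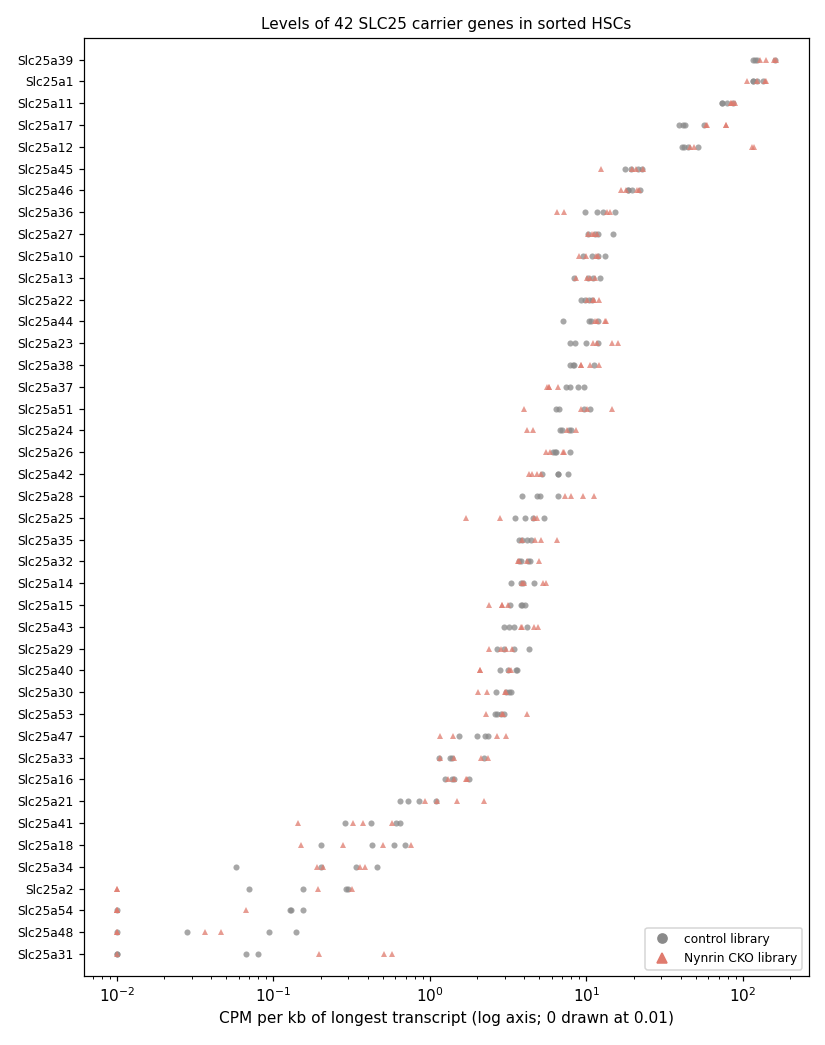
Levels of 42 carrier genes as CPM per kb of transcript on a log axis, 1 point per library (grey circles, control; red triangles, Nynrin CKO), ordered by the control mean, with 0 drawn at the left edge. Slc25a39 and Slc25a1 lead at 130 and 122 CPM per kb, and 7 members at the bottom average under 1 CPM.

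Carriers known mainly from other tissues were near the floor. Slc25a31, the testis adenine nucleotide carrier, had 7, 6, 0 and 0 counts in controls 1 to 4 and 55, 53, 19 and 0 in Nynrin CKO 1 to 4. Slc25a54, which lies beside Slc25a24 on chromosome 3, had 9, 9, 11 and 0 counts in controls and 5, 0, 0 and 0 in Nynrin CKO. Slc25a48, a choline carrier, had 13, 4, 20 and 0 against 7, 6, 0 and 0. These 3 did not pass the filter on low counts and were not tested. Slc25a2, an ornithine carrier, the glutamate carrier Slc25a18, Slc25a34 and Slc25a41 passed the filter at means of 0.174 to 0.912 CPM in either group. For Slc25a18 the neighbouring Atp6v1e1, which overlaps it by 32 bases on the other strand, held 24846 counts against 306, and whether the counting used strand is not known here.

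None of the 40 tested carriers passed the test between Nynrin CKO and control in either direction (edgeR quasi-likelihood, adjusted p threshold 0.05 over all 27573 tested genes). Over all tested genes 2.22% passed as higher and 0.588% as lower. At an unadjusted p under 0.05 there were 6 higher and 3 lower members, where 13.2% and 5.78% of all tested genes lay. DESeq2 was given all 55401 genes and applied its own filter. It called 2 carriers higher and 2 lower, where it called 1586 and 883 of all genes. With limma-voom, on the same 27573 genes as edgeR, 2 and 1 carriers were called, and 1649 and 504 of all genes. The groups did not overlap for 6 members, 3 higher (9.52% of all tested genes) and 3 lower (4.83%) in Nynrin CKO. Those counts amount to shares near the background. The median log2 fold change was 0.05 over the 40 carriers and -0.09 over all tested genes, and 22 of the 40 were positive. Among genes with a mean of at least 10 CPM the median was 0.03 over 29 carriers, of which 15 were positive and 6 did not overlap, and 0.19 over all 9862 such genes, of which 67.1% were positive and 28.8% did not overlap. In 34 of the 40 the log2 fold change was under 0.5 in size, and the range was -0.68 to 0.87.

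**Figure D2:**
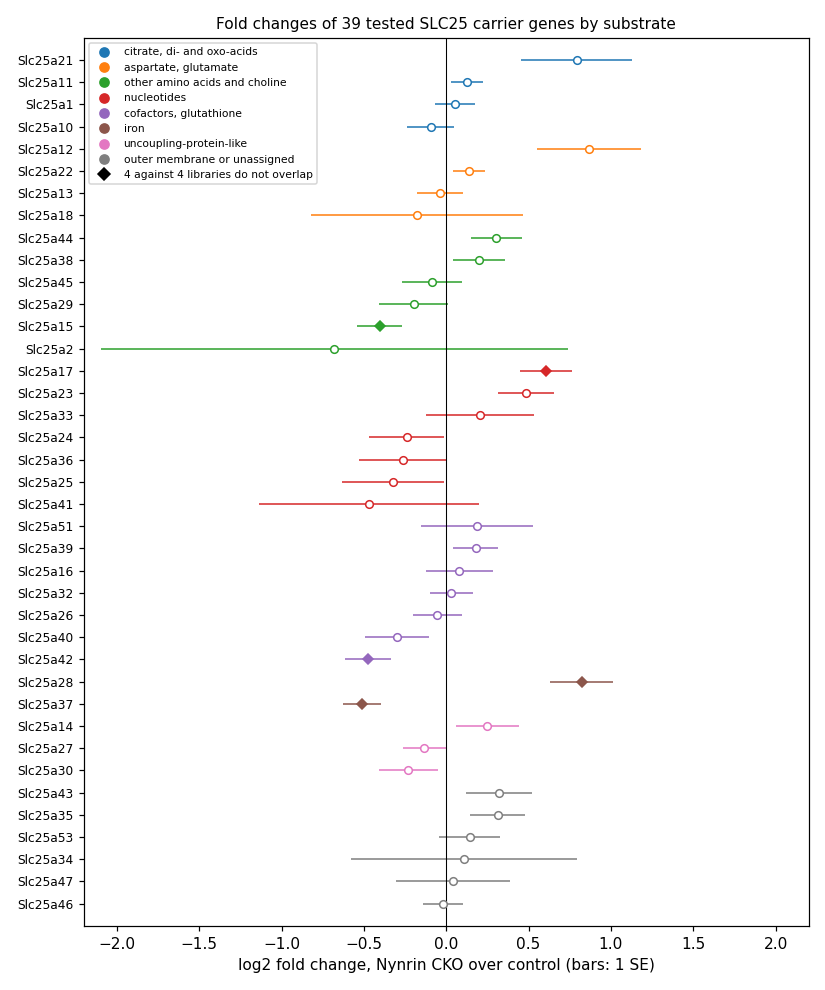
Log2 fold changes of 39 tested carriers, Nynrin CKO over control, with bars of 1 standard error, coloured and ordered by substrate. Filled diamonds mark the 5 genes whose 4 Nynrin CKO and 4 control libraries do not overlap, and most other genes lie within 0.5 of 0.

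The mitoferrins lay apart in opposite directions. Slc25a37 (mitoferrin 1), the iron importer that red cell precursors depend on, was the carrier with the smallest p. It lies on chromosome 14 from 69241848 to 69285112 in mm10 (ENSMUSG00000034248). Its level was 52.5, 56.9, 44.1 and 46.4 CPM in controls 1 to 4 and 39.1, 33, 34.2 and 34.1 CPM in Nynrin CKO 1 to 4. Every Nynrin CKO library was below every control, at 0.702 of the control mean. The log2 fold change was -0.51 ± 0.12 (SE), just short of the threshold (edgeR adjusted p = 0.0501). It became a call with DESeq2 (adjusted p = 5.47e-04), with limma-voom (0.0299), with upper-quartile factors (0.0378), with a filter at a mean of 1 CPM (0.0269) and with library set as a term (0.0268). These were 5 of 14 alternatives. The largest edgeR adjusted p among the 14 was 0.443, where Nynrin CKO 1 and 2, and 3 and 4, were summed as similar libraries. That fit called no gene at all. None of the 8 fits with 1 library left out called Slc25a37. The log2 fold change was -0.50 between Nynrin CKO 1 and 2 and controls 1 to 3, and -0.44 between Nynrin CKO 3 and 4 and control 4.

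Slc25a28 (mitoferrin 2), the iron importer of most other tissues, was higher instead. The gene (ENSMUSG00000040414) lies on chromosome 19 from 43663801 to 43674860. Controls 1 to 4 had 18.1, 18.7, 14.5 and 24.6 CPM, and Nynrin CKO 1 to 4 had 27.3, 29.7, 41.8 and 35.4 CPM. No Nynrin CKO library was as low as any control, and the mean was 1.77 times the control mean. Its log2 fold change of 0.82 ± 0.19 (SE) also fell short (edgeR adjusted p = 0.0520). DESeq2 (0.0107), limma-voom (0.0193), the filter at 1 CPM (0.0419) and the library set term (0.0335) called it, as did the 5 libraries of the larger set (0.0351) and a fit without control 4 (0.0293). These were 5 of 14 alternatives and 1 of 8 fits with 1 library left out. Among the 14 the edgeR adjusted p reached 0.455, again with similar Nynrin CKO libraries summed. Within the library sets the log2 fold change was 0.74 and 0.65.

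Their ratio within a library does not depend on scaling. Slc25a28 over Slc25a37 was 0.345, 0.328, 0.329 and 0.530 in controls 1 to 4, and 0.698, 0.901, 1.22 and 1.04 in Nynrin CKO 1 to 4. Every Nynrin CKO ratio was above every control ratio, with control 4 the highest control and Nynrin CKO 1 the lowest of its group. Control ratios averaged 0.383 ± 0.0983 and Nynrin CKO ratios 0.965 ± 0.221 (SD, n = 4 per group), a log2 difference of 1.33. Since one gene was higher and the other lower in every Nynrin CKO library, the ratios had to separate, and they are given as a description with no test. For 6 other pairs of paralogs, below, the test on ratios was chosen after the values were seen. The summed erythroid markers, made up mostly of Car2 as given above, were higher in every Nynrin CKO library, while Slc25a37 was lower. Of those 13 genes 3 passed as higher, where 2.22% of all tested genes did. Slc25a38, the glycine carrier needed for haem synthesis, was at 16.0 ± 2.78 and 18.3 ± 2.35 CPM (adjusted p = 0.586). Alas1, the general form of the first haem enzyme, had a log2 fold change of 0.91 (adjusted p = 0.193), with 64.2 and 73.6 CPM in Nynrin CKO 3 and 4 and 28.5 and 26.6 CPM in 1 and 2, where controls had 19.2 to 34.3. Iscu, the iron-sulphur scaffold gene, had 0.67 and was higher in every Nynrin CKO library without passing (adjusted p = 0.0997). Fech, which inserts iron into haem, stood at 43.5 and 44.4 CPM (adjusted p = 0.949), and Alas2, the erythroid form of the first haem enzyme, at 5.38 and 6.75 CPM (adjusted p = 0.449).

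**Figure D3:**
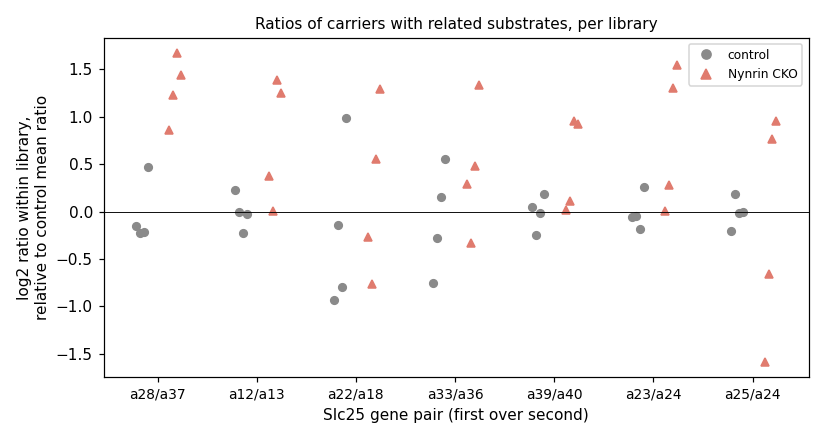
Ratio of the first to the second gene within each library for 7 pairs of carriers with related substrates, on a log2 scale relative to the mean control ratio (grey circles, control; red triangles, Nynrin CKO). In the pair Slc25a28 over Slc25a37 all 4 Nynrin CKO libraries lie above all 4 controls, and in the other 6 pairs the groups overlap.

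Slc25a17 was also higher in every Nynrin CKO library. The gene (chromosome 15, 81318911 to 81360812) was at 71.6, 67.1, 73.6 and 96.6 CPM in controls and at 100 (Nynrin CKO 1), 101, 135 and 134 CPM. Control 4 was the highest control and lay close below Nynrin CKO 1. The log2 fold change was 0.61 ± 0.16 (SE) (edgeR adjusted p = 0.0699), and 0.51 and 0.48 within the library sets. It was called by DESeq2 (adjusted p = 0.0384) and limma-voom (0.0220), among the 5 libraries of the larger set (0.0300) and without control 4 (0.0326). These were 3 of 14 alternatives and 1 of 8 fits with 1 library left out.

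Lower in every Nynrin CKO library were Slc25a42 and Slc25a15. Slc25a42 (chromosome 8, 70184340 to 70212305), which exchanges coenzyme A for adenine nucleotides across the inner membrane, was at 24.2, 27.7, 19.1 and 23.9 CPM in controls and at 15.6, 18.8, 17.6 and 16.3 CPM in Nynrin CKO. Control 3 lay just above Nynrin CKO 2, and the ratio of means was 0.719. The log2 fold change was -0.48 ± 0.14 (SE) (edgeR adjusted p = 0.0940), nearly equal in both library sets at -0.46 and -0.50. DESeq2 (0.0146) and the filter at 1 CPM (0.0399) called it, 2 of 14 alternatives, and none of the 8 fits with 1 library left out did. The ornithine carrier Slc25a15, which feeds ornithine to matrix enzymes, was at 14.4, 17.8, 17.1 and 17.0 CPM in controls and at 10.6, 12.7, 12.8 and 14 CPM in Nynrin CKO. Control 1 lay just above Nynrin CKO 4. Its log2 fold change was -0.40 ± 0.14 (SE) (adjusted p = 0.138). With the per-library trend against length and GC content taken out, the values were -0.355 for Slc25a37, 0.85 for Slc25a28, 0.34 for Slc25a17, -0.42 for Slc25a42 and -0.33 for Slc25a15. The longest transcripts were 1724 bases for Slc25a17 and 3724 for Slc25a28, and 3657 to 5927 bases for those lower.

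**Figure D4:**
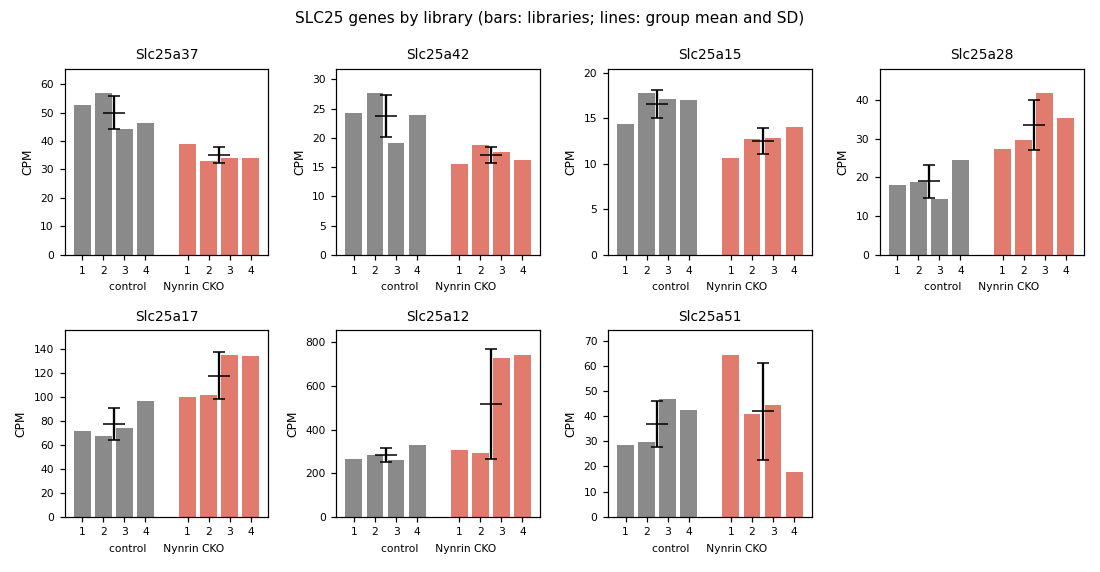
CPM in each library for 7 carriers, bars from 0 (grey, controls 1 to 4; red, Nynrin CKO 1 to 4) with lines at the group mean ± SD. The first 5 panels are genes whose groups do not overlap, Slc25a12 is at 730 and 744 CPM in Nynrin CKO 3 and 4 alone, and Slc25a51 ranges from 17.7 to 64.4 CPM within Nynrin CKO.

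Promoter sequence is shown for 3 of these genes, the higher Slc25a28 and Slc25a17 and the lower Slc25a42, since they include members that lay on either side of the controls and each has a single annotated start. Sequences are from RefSeq on GRCm38.p6, the assembly of mm10, on the minus strand of the chromosome, written 5′ to 3′. That of Slc25a28 ends at the base before the RefSeq start, which lies slightly upstream of the gene's record in the deposited table, and the others end where that record begins. They span chr19:43674882-43675131, chr15:81360813-81361015 and chr8:70212306-70212531. Capitals mark CCAAT or its complement ATTGG, the box bound by NF-Y, and in Slc25a17 also CCGGAAG, an ETS-type match.
Slc25a28: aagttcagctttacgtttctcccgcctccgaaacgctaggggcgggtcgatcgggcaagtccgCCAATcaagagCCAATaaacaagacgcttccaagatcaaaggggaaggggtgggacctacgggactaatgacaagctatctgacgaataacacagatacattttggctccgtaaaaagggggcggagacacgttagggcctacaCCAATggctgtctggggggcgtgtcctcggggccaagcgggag
Slc25a17: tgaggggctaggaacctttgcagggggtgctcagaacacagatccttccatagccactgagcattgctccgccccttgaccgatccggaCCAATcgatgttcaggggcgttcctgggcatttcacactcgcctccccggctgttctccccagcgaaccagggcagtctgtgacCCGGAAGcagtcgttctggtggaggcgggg
Slc25a42: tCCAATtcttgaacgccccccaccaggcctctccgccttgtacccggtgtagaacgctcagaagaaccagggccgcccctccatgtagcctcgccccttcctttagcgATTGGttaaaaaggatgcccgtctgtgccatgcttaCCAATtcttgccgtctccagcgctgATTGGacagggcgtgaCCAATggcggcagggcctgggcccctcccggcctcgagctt
All 3 are rich in GC, at 55.6%, 61.6% and 61.1%, where the median in the 250 bases before the start is 52.4% over all 32851 annotated promoters and 56.8% over those of the carriers. CCAAT on either strand occurs 3 times, 1 time and 5 times in them. It was present in the 250 bases before the start in 20 of the 42 promoters of the 32 carriers with an entry and in 33.8% of all promoters. The genes that lay higher and the gene that lay lower share it. The ETS-type word was found on either strand in 3 of the 42 carrier promoters and in 6.91% of all promoters. The E-box CACGTG was found in 8 of the 42 and in 6.02% of promoters. The GATA word AGATAA was found in 1 of the 42 and in 9.99% of promoters. The NRF1 core word GCGCATGC was found in 2 of the 42 and in 2.26% of promoters. No match in the printed sequences overlaps another. A match is a description of the sequence only.

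Slc25a12 had the largest positive log2 fold change of the carriers, and it came from Nynrin CKO 3 and 4. It was at 267, 281, 259 and 328 CPM in controls 1 to 4, at 307 and 292 CPM in Nynrin CKO 1 and 2, and at 730 and 744 CPM in 3 and 4. Nynrin CKO 1 and 2 lay within the control range. Over all libraries the log2 fold change was 0.87 ± 0.32 (SE) (adjusted p = 0.168), against 0.15 and 1.17 within the library sets. Control 4, from the same set as Nynrin CKO 3 and 4, was the highest control. Its paralog Slc25a13 (citrin), with the same exchange, was at 32.6 ± 4.99 and 31.8 ± 3.65 CPM, a log2 fold change of -0.04 (adjusted p = 0.931). The ratio of Slc25a12 to Slc25a13 was 7.51 to 10.3 in controls, 11.4 and 8.83 in Nynrin CKO 1 and 2, and 23.1 and 20.9 in 3 and 4 (exact permutation p = 0.0571, two-sided, or 0.171 adjusted over 6 pairs). The summed neutrophil precursor and B cell markers, made up mostly of Mpo and Ighm as given above, were also highest in Nynrin CKO 3 and 4, and their part was not tested. Summed over all members, carrier counts were 1580 to 1900 CPM among controls, 1790 and 1770 CPM in Nynrin CKO 1 and 2, and 2290 and 2280 CPM in 3 and 4. Without Slc25a12 they were 1320 to 1570 CPM among controls and 1480 to 1560 CPM in Nynrin CKO.

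Several other carriers had values in Nynrin CKO 3 and 4 apart from those in 1 and 2. Signs of the log2 fold change differed between the sets for 17 of the 40 members. The median over members was 0.15 between Nynrin CKO 1 and 2 and controls 1 to 3 and -0.04 between Nynrin CKO 3 and 4 and control 4, where all tested genes had -0.04 and 0.06. Slc25a24, an ATP-Mg/phosphate carrier, was at 23.3 to 27.2 CPM among controls, 29.4 and 25.8 CPM in Nynrin CKO 1 and 2, and 15.7 and 14.4 CPM in 3 and 4. Slc25a36, a pyrimidine nucleotide carrier, was at 50.8 to 79.3 CPM among controls, 70.6 and 73.4 CPM in Nynrin CKO 1 and 2, and 33.9 and 37.6 CPM in 3 and 4. Slc25a40, the low paralog of Slc25a39, was at 12.6 to 16.0 CPM among controls, 14.3 and 14.7 CPM in Nynrin CKO 1 and 2, and 9.30 and 9.35 CPM in 3 and 4. For all 3, Nynrin CKO 3 and 4 lay below every control, and 1 and 2 did not. Slc25a25, the calcium-responsive ATP-Mg/phosphate carrier, did the reverse, at 6.47 and 10.7 CPM in Nynrin CKO 1 and 2 and 17.7 and 18.5 CPM in 3 and 4, with controls at 13.4 to 20.5 CPM. It overlaps Naif1 by 966 bases on the other strand, which held 429% of its counts. Because the set of Nynrin CKO 3 and 4 has 1 control, its log2 fold changes rest on that library.

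**Figure D5:**
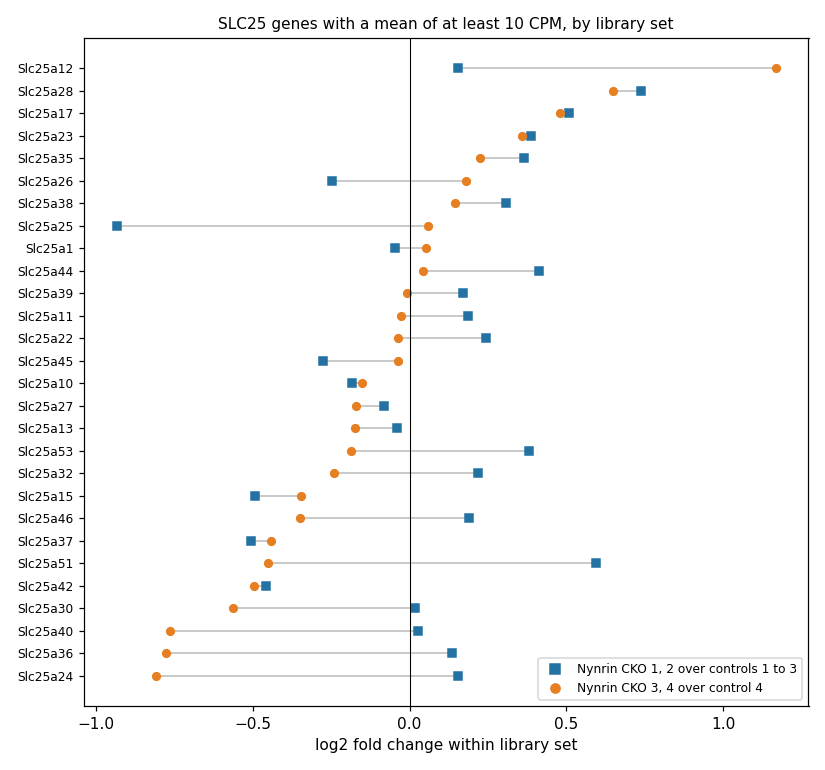
Log2 fold changes within the library sets for 28 carriers with a mean of at least 10 CPM: blue squares, Nynrin CKO 1 and 2 over controls 1 to 3; orange circles, Nynrin CKO 3 and 4 over control 4 alone. Slc25a17, Slc25a28, Slc25a37 and Slc25a42 have like values in both, and Slc25a12, Slc25a24, Slc25a36 and Slc25a40 do not.

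No member of any substrate class passed the test. Of the 4 carriers of citrate and other di- and oxo-acids, 3 were positive (median 0.09). Slc25a1 was at 203 ± 14.5 and 211 ± 26.4 CPM in control and Nynrin CKO, a log2 fold change of 0.05 ± 0.12 (SE) (adjusted p = 0.877), and its sign flips with other scaling. Slc25a11 was at 134 ± 10.5 and 146 ± 3.40 CPM (0.13, adjusted p = 0.561), negative with total counts. Slc25a10, the dicarboxylate carrier, stood at 22.8 ± 3.10 and 21.4 ± 2.81 CPM (adjusted p = 0.805). The low oxodicarboxylate carrier Slc25a21 had 2.16 ± 0.507 and 3.74 ± 1.48 CPM (0.79, adjusted p = 0.241).

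Among the 4 aspartate and glutamate carriers 2 were positive, with the glutamate carrier Slc25a22 at 56.1 ± 3.90 and 61.7 ± 4.63 CPM (0.14, adjusted p = 0.535, negative with total counts). In the other amino acid and choline class, 2 of 6 tested were positive (median -0.14). Slc25a44, a branched-chain amino acid carrier in brown fat of mice, was at 35.8 ± 7.22 and 44.2 ± 3.56 CPM (0.30, adjusted p = 0.343). Slc25a45 was at 52.3 ± 5.81 and 49.2 ± 11.8 CPM (-0.09, adjusted p = 0.861). Slc25a29, a carrier of basic amino acids, was at 6.59 and 5.75 CPM (adjusted p = 0.705).

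Of 7 tested nucleotide carriers 3 were positive (median -0.24). Slc25a23, another ATP-Mg/phosphate carrier, was at 28.2, 33.2, 26.4 and 39.9 CPM in controls and 37.2, 39.3, 49.1 and 53.1 CPM in Nynrin CKO. Only control 4 reached into the Nynrin CKO range (0.48, adjusted p = 0.146). Its ratio to Slc25a24 was 1.11 to 1.51 in controls and 1.27, 1.53, 3.12 and 3.68 in Nynrin CKO 1 to 4 (exact permutation p = 0.0571, two-sided, or 0.171 adjusted over 6 pairs). Slc25a33, the second pyrimidine nucleotide carrier, was at 2.87 ± 0.882 and 3.32 ± 1.05 CPM (adjusted p = 0.813) and shares bases with Gm13068 on the other strand. The ratio pairs Slc25a33 over Slc25a36, Slc25a39 over Slc25a40, Slc25a22 over Slc25a18 and Slc25a25 over Slc25a24 had adjusted p of 0.429, 0.342, 0.583 and 0.914 by the same exact permutation.

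Of 8 cofactor carriers 5 were positive (median 0.06). Slc25a39 was at 219 ± 34.8 and 248 ± 25.6 CPM (0.18, adjusted p = 0.571, negative with total counts). The folate carrier Slc25a32 was at 23.8 ± 1.88 and 24.3 ± 3.58 CPM (adjusted p = 0.939), and Slc25a26, which imports S-adenosylmethionine, at 13.9 ± 1.69 and 13.3 ± 1.72 CPM (adjusted p = 0.903) with Lrig1 overlapping it on the other strand. Slc25a16, whose yeast relative is tied to coenzyme A, was at 4.56 and 4.82 CPM (adjusted p = 0.893). Slc25a51, the NAD carrier, was uneven within each group. It measured 28.3, 29.6, 46.8 and 42.5 CPM in controls and 64.4, 40.9, 44.4 and 17.7 CPM in Nynrin CKO (0.19, standard error 0.34, adjusted p = 0.840). Both the highest and the lowest library were Nynrin CKO.

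All 3 uncoupling-protein-like members, Slc25a14, Slc25a27 and Slc25a30, had adjusted p of 0.573, 0.675 and 0.577, with 7.30 and 8.68, 34.8 and 31.7, and 11 and 9.33 CPM in control and Nynrin CKO. In the outer-membrane and unassigned class 5 of 6 tested were positive (median 0.13). Slc25a46 was at 85.5 ± 7.31 and 84.3 ± 11 CPM (-0.02, adjusted p = 0.958). Slc25a35, Slc25a43 and Slc25a53 had log2 fold changes of 0.31, 0.32 and 0.14 (adjusted p = 0.370, 0.454 and 0.767), Slc25a47, a gene of liver, had 0.04 (0.971) and Slc25a34 had 0.11 (0.960). Slc25a35 overlaps Rangrf and Slc25a53 overlaps Zcchc18 on the other strand, and each neighbour held more counts than the carrier.

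Relatives and partners of the carriers give the setting. Of the SLC25 genes left out by the rule, the carnitine carrier Slc25a20 rose (0.52, adjusted p = 0.0394), where 2.22% of all tested genes passed as higher. The adenine nucleotide carriers Slc25a5 and Slc25a4 stood at 0.66 and 0.31 (adjusted p = 0.0772 and 0.240) and the phosphate carrier Slc25a3 at 0.20 (0.465). Of 4 tested family genes under other symbols none passed (at an unadjusted p under 0.05, Mtch2 alone). Mtch2, an outer-membrane insertase, had 0.26 (adjusted p = 0.191), and the uncoupling protein gene Ucp2 was at 768 to 837 CPM among controls, 660 and 671 CPM in Nynrin CKO 1 and 2 and 1480 and 1670 CPM in 3 and 4 (adjusted p = 0.454). Of 15 other mitochondrial transport genes 3 rose and none fell: the outer-membrane protein gene Tspo (0.91, adjusted p = 0.0408) and the pyruvate carriers Mpc1 (0.90, 0.0415) and Mpc2 (0.47, 0.0458), against the 2.22% higher and 0.588% lower over all tested genes. The pore genes Vdac3 and Vdac2 and the serine carrier gene Sfxn1 were higher in all 4 against 4 libraries without passing (adjusted p = 0.0633, 0.104 and 0.0636). Of 30 enzymes that make or use the carried metabolites, 2 rose and none fell, among them the matrix malate dehydrogenase gene Mdh2 of the malate-aspartate shuttle (0.79, adjusted p = 0.0396), against the same background. These calls lie near the threshold: of 22 alternatives, 7 called Slc25a20, 9 Tspo, 8 Mpc1, 4 Mpc2 and 8 Mdh2, with positive values in all 22. Other enzymes next to the shuttle carriers did not pass: Got1 and Got2, the aspartate aminotransferases, had 0.25 and 0.09 (adjusted p = 0.272 and 0.771), Mdh1 0.63 (0.138), and the citrate enzymes Cs and Acly -0.01 and 0.07 (0.977 and 0.851).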

How the data were processed

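Sorted HSC RNA was sequenced in 8 libraries, 4 controls and 4 Nynrin CKO, grouped by the labels. The deposited values are raw counts, whole numbers for each gene, per the file headers, on mm10 per the submitters' processing notes. No aligner, counter or strand setting is given in the sources used here, so reads of overlapping genes can fall on either record. Neighbours with at least 10% of a member's counts are named.

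The test was that of edgeR 4.0.16 (R 4.3.3), with filterByExpr, TMM factors, robust quasi-likelihood F-test and Benjamini-Hochberg adjustment over 27573 genes, threshold 0.05. CPM use the TMM factors and means carry SD over 4 libraries. For ratios within libraries, log2 values entered a two-sided exact permutation test with 70 assignments, which allow no p under 0.0286. Lengths are those of the longest GENCODE M21 transcript, which 43 members matched. RefSeq promoters matched 32 members, and 42 promoter entries were searched over 250 bases.

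Members and lists were chosen with earlier results of these data known. Named by rule were members that passed, those whose groups did not overlap, the 10 with the highest mean CPM, near paralogs with a shared substrate, and members at a mean of at least 1 CPM with a log2 fold change of at least 1 in size (none). The other members, Slc25a51 among them, were named after their values were seen. In context lists up to 4 passing genes were named, or the 2 with the smallest p, and others were added after seeing values. Alternatives were RLE, upper-quartile and no factors, 2 filters, DESeq2 1.42.0, limma 3.58.1 voom, no robust estimation, a replicate term, library set (drawn at 300 CPM of receptor reads) and Xist class (100 CPM) as terms, the larger set alone, similar libraries summed, a length and GC trend removed, and each library left out. Values within sets, fitted as 1 mean for each combination, were added after seeing the data and assume that control 4 varies like the others. Depth was 36942835 to 56437299 counts per library, so precision is poorest for the members under 1 CPM. Results for 1 carrier and 1 enzyme gene enter the counts and fits but are not reported here.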

Additional observations from a re-analysis of the deposited data

Results flagged for a closer look

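In 3 of the 80 groups of 4 libraries over the 40 tested carriers, 1 library stood far from the other 3 by Dixon's criterion, and chance flags about 1 group in 20. Slc25a39 was at 271 CPM in control 4, with the other controls at 196 to 208 CPM. Slc25a38 was at 20.1 CPM in control 1 and at 14.1 to 14.9 CPM in the other controls. Slc25a26 was at 16.4 CPM in control 3 and at 12.7 to 13.2 CPM in the other controls. All 3 are controls of genes whose groups overlapped, and none is a call.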

How the results depend on the processing

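Of 23 named and tested carriers, 11 kept the sign of their log2 fold change in every alternative that could be fitted, among them all 6 whose groups did not overlap. Carriers called were 1 lower with upper-quartile factors, 1 higher and 2 lower with a mean of at least 1 CPM, 2 and 2 with DESeq2, 2 and 1 with limma-voom, 1 and 1 with library set as a term, 2 and 0 with the larger set only, and 0 to 2 higher and 0 to 0 lower with 1 library left out, where the 2 (Slc25a17 and Slc25a28) came without control 4. The median over members was -0.007 with RLE factors, -0.061 with upper-quartile factors, -0.217 with total counts, -0.031 with the filter at 1 CPM, -0.042 with a replicate block, 0.146 in the larger set, -0.018 with similar libraries summed, -0.047 with the length and GC trend removed, and -0.031 to 0.077 with 1 library left out; the median of all tested genes moved to -0.14, -0.20 and -0.34 with those 3 scalings.

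Signs turned, none of them of a call. Slc25a1 was at -0.049 under upper-quartile factors, -0.228 with total counts, -0.046 with the filter at 1 CPM, -0.031 with a replicate block, -0.107 with library set as a term, -0.054 in the larger set, -0.005 with similar libraries summed and -0.132 with the length and GC trend removed. With total counts Slc25a11 was at -0.137, Slc25a22 at -0.117, Slc25a33 at -0.049 and Slc25a39 at -0.097, and Slc25a11 was at -0.099 with the trend removed. Slc25a13 was at 0.014 with limma-voom and 0.116 with Xist class, and Slc25a46 at 0.093 and 0.050 there, 0.181 in the larger set and 0.033 with the trend removed. Slc25a18 was at 0.031 with library set as a term. In the larger set it was at 0.132, Slc25a24 at 0.146, Slc25a36 at 0.125 and Slc25a40 at 0.020. With 1 library left out the ranges were -0.045 to 0.140 for Slc25a1, -0.126 to 0.057 for Slc25a13, -0.611 to 0.115 for Slc25a18, -0.218 to 0.077 for Slc25a45 and -0.097 to 0.061 for Slc25a46. The cause was not tested.

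Over all genes, 611 higher and 162 lower became 13 and 22 with RLE factors, 225 and 251 under upper-quartile factors, 59 and 318 for total counts, 33 and 16 with no filter, 673 and 478 with a mean of at least 1 CPM, 1586 and 883 with DESeq2, 1649 and 504 with limma-voom, 383 and 479 with library set as a term, 1311 and 857 in the larger set, 4 and 9 with Xist class, 0 and 0 with similar libraries summed and 2 and 1 with the trend removed. Leaving out 1 library other than control 4 gave 1 to 6 and 0 to 4, and leaving out control 4 gave 1129 and 243. The replicate block called 0 members, and 15 and 5 of all genes. Same-numbered libraries had deviations correlated at 0.154, 0.148, -0.172 and 0.314, so the numbers were not taken to pair them. Slc25a2 and, with the filter at 1 CPM, Slc25a18 and Slc25a41 could not be fitted in every alternative.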

Other observations

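Nynrin CKO 3 and 4 were nearly alike in most carriers, and Slc25a51 was an exception. Over the 29 carriers with a mean of at least 10 CPM, the absolute log2 difference between these libraries had a median of 0.108, and the second largest was 0.331. For Slc25a51 it was 1.33, with 2015 counts in Nynrin CKO 3 and 737 in 4. Among all genes of that level, 0.527% differed as much. Nynrin CKO 1 and 2 differed by 1.57 times in the same gene, with 2906 and 1984 counts. Nadk2, a mitochondrial NAD kinase gene, named after its values were seen, had 32.0 and 25.1 CPM in Nynrin CKO 1 and 2, 15 and 4.49 CPM in 3 and 4, and 20.0 to 23.3 CPM among controls (log2 fold change -0.16, edgeR adjusted p = 0.907).

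Slc25a31 had 127 counts in Nynrin CKO and 13 in controls, on 3 and 2 libraries. It stayed under the filter on low counts.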
